A study of Mus musculus with 10 samples.

Results

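Expression of 10 genes of glucose breakdown and the hypoxia response was followed in mouse colon: Hif1a, Pfkfb3, Pfkfb4, Hk1, Hk2, Ldha, Pgk1, Pdk1, Vegfa and Car9. The genes were taken by name, and their FPKM (sequenced fragments scaled to transcript length and library size) were summed over the RefSeq transcripts of each gene. These genes, like the gene lists below, were chosen with earlier results of these data known. They make up 10 of 23473 gene rows and 24 of 30073 transcripts of the table, and all 10 were among the 14061 rows that reached 1 FPKM in at least 2 libraries and were tested. RNA-seq libraries came from colon of C57BL/6 mice in 5 groups of 2 libraries, numbered replicate 0 and 1. Control mice were injected with saline at 6 weeks of age and ate the AIN-93M diet. The Model, ASA, CUR and ASA+CUR groups, called the AOM/DSS groups here, all received the carcinogen azoxymethane (AOM, 10 mg/kg) at that age and then dextran sulfate sodium (DSS, 1.2% in the drinking water for 7 days), which injures the colon lining. Model mice ate AIN-93M alone. The ASA diet held 0.02% aspirin, the CUR diet 2% curcumin, and the ASA+CUR diet 0.01% aspirin and 1% curcumin, so each agent was at a lower share in the combination. The labels name colonic tissue for Control and tumor samples for the AOM/DSS groups, while the stated extraction took colon from which palpable tumors had been removed. Whether replicate 0 and 1 of a group are different animals is not stated, and if they are not, the p-values reflect technical spread alone.

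Hif1a encodes the oxygen-regulated subunit of hypoxia-inducible factor (HIF). The protein is marked by prolyl hydroxylases and degraded through Vhl when oxygen is present, and under low oxygen or inflammatory signals it accumulates and switches on genes of glucose uptake, glycolysis, vessel growth and acid handling. Its control is largely on the protein, so the transcript level is not a measure of HIF activity. Hexokinases (Hk1, Hk2) trap glucose in the cell, the bifunctional PFKFB enzymes (Pfkfb3, Pfkfb4) set the level of the main activator of phosphofructokinase, Pgk1 makes ATP in the lower pathway and Ldha turns pyruvate into lactate. Pdk1 switches off pyruvate dehydrogenase and so keeps pyruvate out of the mitochondria, Vegfa is the main signal for vessel growth, and Car9 is a cell-surface carbonic anhydrase. The colon lining normally sits next to a lumen with almost no oxygen, and its surface cells burn butyrate.

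The sequence just upstream of the annotated start is shown for 3 genes that differed from Control (Pfkfb3, Pfkfb4, Hk1) and 3 that did not pass the test (Hk2, Ldha, Pgk1), because HIF acts through short motifs in promoters of several of these genes. Each is the longest run without an annotated exon in the 250 bases before the start, from RefSeq (GRCm38.p6), printed 5′ to 3′ on the gene's strand. Capitals mark the 5-base cores ACGTG and GCGTG of the hypoxia response element on either strand, and the palindrome CACGTG counts as 2 matches of ACGTG. The stretches lie at chr2:11502102-11502340 (Pfkfb3, minus strand, downstream starts), chr9:108991652-108991777 (Pfkfb4, plus), chr10:62340543-62340606 (Hk1, minus, downstream start), chr6:82774455-82774704 (Hk2, minus), chr7:46845554-46845803 (Ldha, plus) and chrX:106186850-106187099 (Pgk1, plus).
Pfkfb3: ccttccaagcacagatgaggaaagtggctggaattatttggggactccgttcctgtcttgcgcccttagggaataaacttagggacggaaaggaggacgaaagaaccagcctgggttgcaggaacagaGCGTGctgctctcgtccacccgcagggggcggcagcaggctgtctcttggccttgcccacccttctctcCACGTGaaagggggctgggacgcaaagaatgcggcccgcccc
Pfkfb4: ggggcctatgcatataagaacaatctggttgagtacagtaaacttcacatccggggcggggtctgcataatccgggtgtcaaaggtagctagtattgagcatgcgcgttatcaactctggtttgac
Hk1: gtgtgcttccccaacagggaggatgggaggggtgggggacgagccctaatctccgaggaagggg
Hk2: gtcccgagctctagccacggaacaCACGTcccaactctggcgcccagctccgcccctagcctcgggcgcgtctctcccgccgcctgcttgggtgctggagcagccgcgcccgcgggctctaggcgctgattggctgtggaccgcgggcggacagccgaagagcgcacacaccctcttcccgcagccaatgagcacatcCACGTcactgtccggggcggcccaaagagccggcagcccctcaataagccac
Ldha: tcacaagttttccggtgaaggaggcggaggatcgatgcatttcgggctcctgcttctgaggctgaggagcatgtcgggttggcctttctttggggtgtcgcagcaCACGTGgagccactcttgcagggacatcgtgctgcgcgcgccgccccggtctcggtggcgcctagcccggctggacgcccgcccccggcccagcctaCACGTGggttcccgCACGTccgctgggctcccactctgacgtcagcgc
Pgk1: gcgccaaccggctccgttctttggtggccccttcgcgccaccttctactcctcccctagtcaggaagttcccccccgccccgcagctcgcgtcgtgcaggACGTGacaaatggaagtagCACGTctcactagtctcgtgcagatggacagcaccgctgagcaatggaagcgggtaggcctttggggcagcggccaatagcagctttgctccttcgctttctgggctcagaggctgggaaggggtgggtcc
The Ldha stretch held 5 matches of ACGTG, the Hk2 and Pgk1 stretches 2 each, and the Pfkfb3 stretch 2 of ACGTG and 1 of GCGTG. No match was found in the stretches of Pfkfb4 and Hk1, whose full windows of 250 bases held 1 and 3 matches of GCGTG. Either core was found in 12 of the 15 windows of the 10 genes, with at least 1 such window for each of the 10. Over all 32851 windows of that length in the table, 16.6% held ACGTG, 28.2% GCGTG and 38.6% either. These matches describe letters and not bound sites.

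Library sums ran from 515959 to 720895 FPKM, and read numbers are unknown. The replicate libraries of a group correlated at r = 0.947 to 0.986 across the tested rows, in log2(FPKM + 1). Summed marker levels separated Control from the AOM/DSS groups. The 10 smooth muscle markers summed to 9323 and 5666 FPKM in Control, 726 and 913 in Model and 301 to 501 in the ASA, CUR and ASA+CUR libraries. Over the AOM/DSS groups 10 of 10 were called lower. The 10 markers of enteric neurons and glia summed to 94.1 and 95.2 FPKM in Control against 7.06 to 16.6 in the 8 AOM/DSS libraries, with 9 of 10 called lower. The 10 neutrophil markers summed to 5.23 and 2.68 FPKM in Control, with Ngp at 0 in both libraries, against 114 to 609, and the 9 measured macrophage markers to 307 and 232 against 500 to 1672. Of these, 6 of 8 tested neutrophil and 7 of 9 macrophage markers rose over the AOM/DSS groups. In that comparison 14.6% of all tested rows were called higher and 16.9% lower. Ngp was at 0 in both CUR libraries as well, and Camp was at 0 in both CUR and both ASA+CUR libraries. Markers of squamous epithelium, a lining that colon lacks, summed to 1.74 and 1.02 FPKM in Control and to 15.0 to 842 in the AOM/DSS libraries. Trp63, Sprr3 and Ivl were at 0 in both Control libraries, and Trp63 and Sprr3 also in both CUR libraries. Markers of absorptive colonocytes (9 measured) summed to 5889 and 5748 FPKM in Control, to 6382 in CUR replicate 0, and to 805 to 1771 in the other 7 AOM/DSS libraries, so CUR replicate 0 stood apart from its group. The 10 pan-epithelial markers summed to 9127 and 10174 FPKM in Control and 5772 to 12881 in the AOM/DSS libraries. In such bulk tissue, fewer cells of a type and less RNA per cell cannot be told apart. By the labels, Control was colonic tissue and all AOM/DSS libraries were tumor samples. In the comparisons with Control, AOM and DSS therefore cannot be told apart from the tissue sampled.

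Of the 10 genes, Pfkfb3 rose and Pfkfb4 and Hk1 fell in Model against Control, and Hif1a joined them when all 4 AOM/DSS groups were set against Control. Hk2, Ldha, Pgk1, Pdk1, Vegfa and Car9 did not pass the test in either comparison. The count was 3 of 10 in Model against Control (1 higher, 2 lower), where 16.2% of all tested rows were called (6.84% higher, 9.34% lower), by limma on log2(FPKM + 1) with Benjamini-Hochberg adjusted p under 0.05. At an unadjusted p under 0.05 the share of all rows was 31.7%. In the mean of the AOM/DSS groups against Control it was 4 of 10 (2 higher, 2 lower), beside 31.5% of all tested rows (14.6% higher, 16.9% lower) and 43.8% at an unadjusted p under 0.05. The libraries of 4 of the 10 genes did not overlap between the 8 AOM/DSS libraries and Control, close to the share over all rows, 40.4% (20.1% higher, 20.3% lower). In Model against Control it was also 4 of 10, beside 64.9% of all rows (32.7% higher, 32.2% lower). Both comparisons use the same Control libraries. Scaling all libraries to the same FPKM sum moved the calls over all rows from 962 higher and 1314 lower to 1626 and 773 in Model, and from 2057 and 2378 to 3623 and 1540 over all AOM/DSS groups. Without Control replicate 1, Pfkfb3 (1.27), Pfkfb4 (−1.08) and Hk1 (−0.72) all missed the threshold in Model against Control. Over all AOM/DSS groups, fewer of the 10 genes passed when either Control library was left out. Calls over all rows fell in these fits as well, and each left 1 Control library. Without Model replicate 0 the genes called in Model against Control stayed the same. Without Model replicate 1, Hif1a passed in Model against Control and Hk1 did not. The count in Model against Control was 2 with equal FPKM sums and with only Control and Model in the fit.

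**Figure D1:**
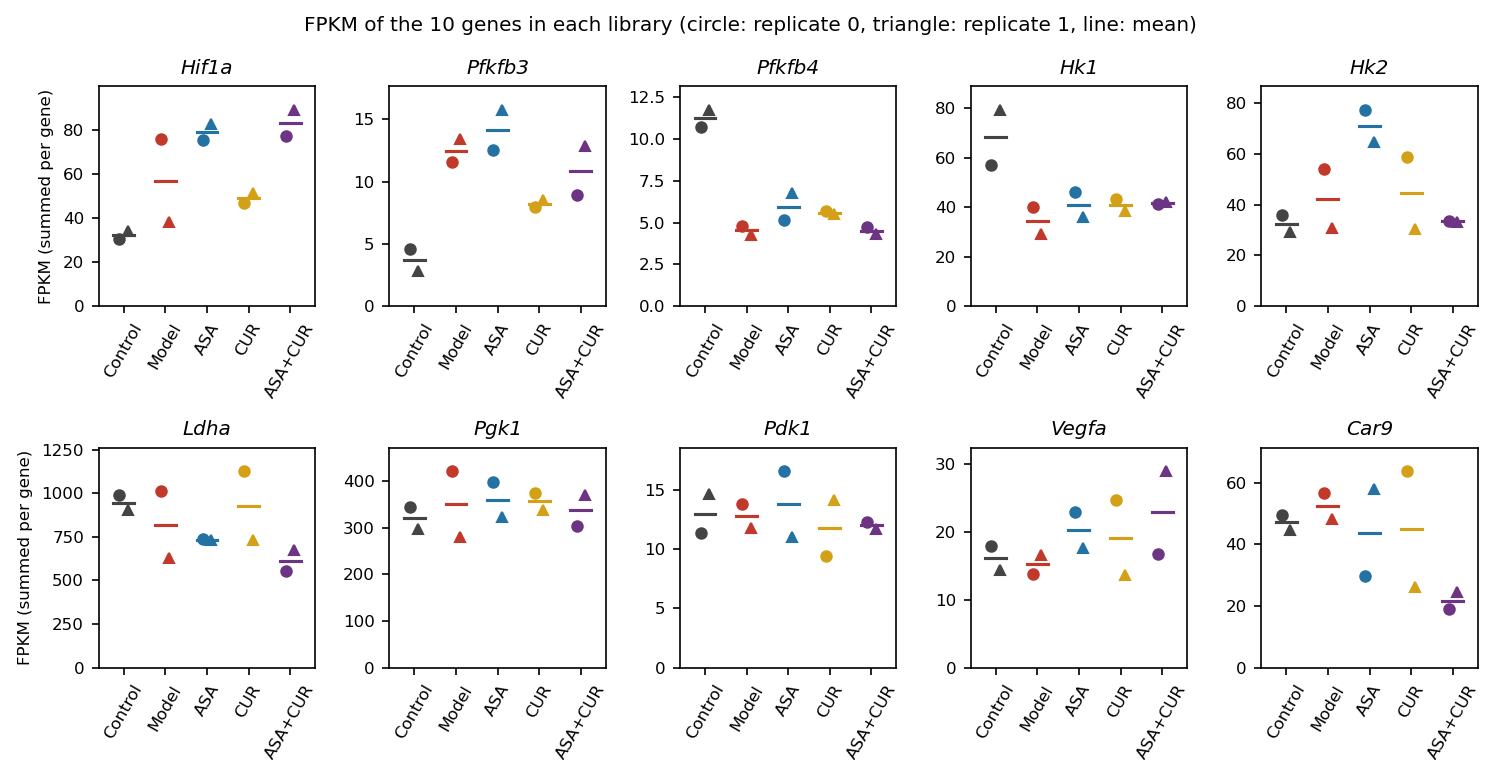
FPKM of each of the 10 genes in each of the 10 libraries, by group. Circles are replicate 0, triangles replicate 1 and lines the group mean. Pfkfb3 is higher and Pfkfb4 and Hk1 lower in all 8 AOM/DSS libraries than in both Control libraries, while Ldha, Pgk1, Pdk1, Vegfa and Car9 overlap.

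Hif1a (chr12:73901324-73947554, plus strand, GRCm38.p6) was measured as 1 transcript. Its level was 30.6 and 34.2 FPKM in Control, 75.7 and 38.4 in Model, 75.6 and 82.8 in ASA, 47.0 and 51.2 in CUR, and 77.0 and 89.2 in ASA+CUR. All 8 AOM/DSS libraries were above both Control libraries, and Model replicate 1 was the nearest to them. The mean rose from 32.4 ± 2.54 FPKM (SD, n = 2) to 67.1 ± 18.8 (SD, n = 8), a difference of 0.98 ± 0.22 (limma SE) on the log2(FPKM + 1) scale, or 1.97-fold, with an adjusted p of 0.0123 (limma). Model against Control gave 0.72 ± 0.28 with an adjusted p of 0.117, which does not pass. It gave 1.20 (adjusted p = 0.0148) without Model replicate 1 and 0.24 (adjusted p = 0.443) without Model replicate 0, so its size depended on the library kept. The difference over all AOM/DSS groups missed the threshold when Control replicate 0 (0.90, adjusted p = 0.117) or Control replicate 1 (1.05, adjusted p = 0.0805) was left out. In order of the group means, Control (32.4 FPKM) was followed by CUR (49.1), Model (57.0), ASA (79.2) and ASA+CUR (83.1). The ranges of Control and CUR did not overlap, and those of all later neighbours did.

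Epas1, the paralogous HIF alpha subunit of vessels and other tissues, was measured at 34.2 and 49.5 FPKM in Control and 13.8 to 42.5 in the AOM/DSS libraries, and did not pass the test (−0.50 ± 0.27, adjusted p = 0.189). The ratio of Hif1a to Epas1 FPKM within a library was 0.894 and 0.691 in Control and ran from 0.902 in Model replicate 1 to 6.49 in ASA+CUR replicate 1. Over all tested rows 16.2% were called in Model (6.84% higher, 9.34% lower) and 31.5% over all AOM/DSS groups (14.6% higher, 16.9% lower). The 8 tested genes among HIF subunits and oxygen sensors held no more calls than this in both directions together. Of the 8, 1 rose in Model and 2 rose over all AOM/DSS groups, with none called lower. These were Arnt2, a dimer partner (1.80 ± 0.38 in Model, adjusted p = 0.0187, and 1.54 ± 0.30 over all, adjusted p = 0.0067), and Egln3, an oxygen-sensing prolyl hydroxylase that is itself a HIF target. Egln3 stood at 35.3 and 18.9 FPKM in Control and 42.8 to 77.9 in the AOM/DSS libraries, with 0.87 ± 0.29 in Model (adjusted p = 0.0836) and 0.97 ± 0.23 over all (adjusted p = 0.0162). Vhl, which targets Hif1a protein for degradation, gave 0.10 ± 0.11 (adjusted p = 0.515). Over all AOM/DSS groups, Arnt2 was not called without Control replicate 0 (1.47, adjusted p = 0.0739) or Control replicate 1 (1.60, adjusted p = 0.0609), and Egln3 not without Control replicate 1 (0.54, adjusted p = 0.186). In Model, Arnt2 missed the threshold in each of the 4 fits that left out a Control or Model library, with adjusted p from 0.0670 to 0.107.

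Pfkfb3 (chr2:11471430-11554071, minus strand), whose enzyme strongly favours the glycolytic activator, was the member with the largest rise. It stood at 4.59 and 2.78 FPKM in Control, 11.6 and 13.4 in Model, 12.5 and 15.8 in ASA, 7.93 and 8.53 in CUR, and 8.90 and 12.8 in ASA+CUR. No AOM/DSS library fell within the Control range. The rise in Model was 1.55 ± 0.25 on the log2(FPKM + 1) scale, 2.93-fold, with an adjusted p of 0.00679 (limma), and over all AOM/DSS groups 1.40 ± 0.20 with an adjusted p of 0.00161. The second passed under every alternative run, with adjusted p from 0.00100 to 0.0299. The first missed the threshold without Control replicate 1 (1.27, adjusted p = 0.0559). By group mean, Control (3.68) was followed by CUR (8.23), ASA+CUR (10.9), Model (12.5) and ASA (14.1), and the ranges of Control and of CUR did not overlap that of the next group, while later neighbours overlapped.

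Of the 8 Pfkfb3 transcripts, 7 start downstream and 1, NM_001177758, starts 51976 bases upstream, and 2 of the 7 (NM_001177753 and NM_001177757) were listed at 0 in all 10 libraries. The summed level of the 7 transcripts from the downstream starts, next to the Pfkfb3 stretch printed above, was 3.39 and 1.85 FPKM in Control, 11.6 and 9.74 in Model, 12.2 and 12.9 in ASA, 2.87 and 6.67 in CUR, and 7.52 and 12.2 in ASA+CUR. The upstream transcript was at 1.20 and 0.934 FPKM in Control and between 0.00123 FPKM in Model replicate 0 and 5.06 in CUR replicate 0. Its share of the gene ran from 0.0106% in Model replicate 0 to 63.8% in CUR replicate 0, and it differed widely between the 2 libraries of each AOM/DSS group. CUR replicate 0 is thus the AOM/DSS library whose downstream sum lay inside the Control range. Such shares are estimates of the authors' model that divides fragments among transcripts, and no test was run on them.

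Pfkfb4 (chr9:108988272-109032236, plus strand), the paralog with a more balanced kinase and phosphatase, went the other way. Its level was 10.7 and 11.8 FPKM in Control, 4.82 and 4.28 in Model, 5.16 and 6.75 in ASA, 5.70 and 5.49 in CUR, and 4.71 and 4.33 in ASA+CUR. The 8 AOM/DSS libraries lay in a narrow band below both Control libraries. Pfkfb4 fell by 1.14 on the log2(FPKM + 1) scale in Model (SE 0.17, adjusted p = 0.00551), to 0.453 times, and by 1.00 over all AOM/DSS groups (SE 0.14, adjusted p = 0.00147). Like Pfkfb3, it passed over all AOM/DSS groups in every alternative run (adjusted p from 0.00136 to 0.0328) and missed in Model without Control replicate 1 (−1.08, adjusted p = 0.0579). The ratio of Pfkfb3 to Pfkfb4 FPKM within a library, which no scaling of a library can move, was 0.427 and 0.237 in Control and 1.39 to 3.13 in the AOM/DSS libraries, with a median of 2.37. Pfkfb4 was therefore the more abundant of the pair per length in both Control libraries and Pfkfb3 in all 8 others. The remaining family genes of the list, Pfkfb1, Pfkfb2 and the related phosphatase Tigar, did not pass in either comparison.

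**Figure D2:**
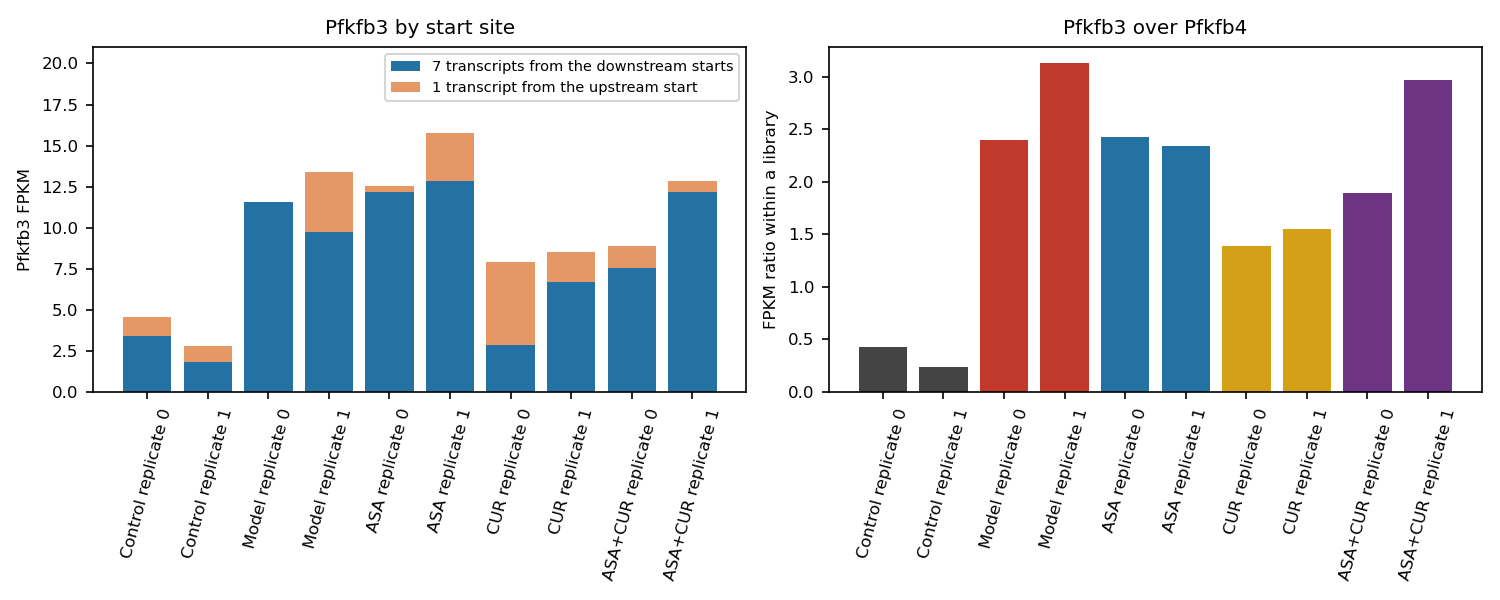
Left, Pfkfb3 FPKM per library as stacked bars, blue for the 7 transcripts of the downstream starts and orange for the upstream transcript. Right, the ratio of Pfkfb3 to Pfkfb4 FPKM per library, which is 0.237 and 0.427 in Control and at least 1.39 in the other 8 libraries.

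Hk1 (chr10:62268855-62379920, minus strand), the widely expressed hexokinase that binds mitochondria, was at 57.1 and 79.4 FPKM in Control, 39.9 and 29.2 in Model, 45.9 and 36.1 in ASA, 43.3 and 38.4 in CUR, and 41.4 and 42.0 in ASA+CUR. All AOM/DSS libraries were below Control, and the 4 AOM/DSS groups overlapped from neighbour to neighbour. Hk1 fell by 0.96 in Model (SE 0.22, adjusted p = 0.0238, limma) and by 0.76 over all AOM/DSS groups (SE 0.17, adjusted p = 0.0123), to 0.589 times. The call rested on Control replicate 1, without which the values were −0.72 (adjusted p = 0.162) and −0.53 (adjusted p = 0.160), and in Model also on Model replicate 1 (−0.74 without it, adjusted p = 0.114). It was lost as well when the libraries were scaled to equal FPKM sums (−0.71, adjusted p = 0.0809, and −0.50, adjusted p = 0.0739), and in Model when only Control and Model were fitted (adjusted p = 0.0501). That scaling moves the median of all tested rows from 0.02 to 0.26 in Model and to 0.28 over all AOM/DSS groups, and relative to that median Hk1 was at −0.97 and −0.78, against −0.98 and −0.79 as deposited. Smooth muscle (10 of 10) and enteric neuron and glia markers (9 of 10) fell with Hk1 between Control and the AOM/DSS groups, and their part in the Hk1 result was not tested. The downstream-start transcript NM_001146100, next to the Hk1 stretch above, held 94.2% to 98.8% of Hk1 in every library.

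Hk2 (chr6:82725025-82774454, minus strand), the inducible hexokinase, was at 35.7 and 29.3 FPKM in Control, 54.0 and 30.7 in Model, 77.4 and 64.8 in ASA, 58.9 and 30.2 in CUR, and 33.4 and 33.3 in ASA+CUR. Model, CUR and ASA+CUR overlapped Control, and both ASA libraries were above all others. The differences from Control were 0.33 ± 0.34 in Model (adjusted p = 0.564) and 0.46 over all AOM/DSS groups, with a 95% interval of −0.16 to 1.09 (adjusted p = 0.224). Scaling to equal sums gave 0.74 with an adjusted p of 0.0294 for the latter, or 0.46 relative to the median of all rows. The ratio of Hk2 to Hk1 within a library was 0.626 and 0.368 in Control and 0.786 to 1.79 in the AOM/DSS libraries, so Hk2 was below Hk1 in both Control libraries, in both ASA+CUR libraries and in CUR replicate 1. Hk3, the hexokinase of myeloid cells, rose from 0.399 and 0.441 FPKM to between 1.58 and 2.65 (1.08 ± 0.17, adjusted p = 0.00261), and Hkdc1, a hexokinase-like gene of gut epithelium, fell from 4.67 and 6.39 FPKM to between 0.0604 and 0.944 (−2.29 ± 0.19, adjusted p = 0.000183). Hk3 is outside the rule for named genes and was chosen after its values were seen.

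Pgk1 (chrX:106187100-106203699, plus strand) was the steadiest of the 10, with its highest library at 1.51 times its lowest. It was at 345 and 297 FPKM in Control, 422 and 279 in Model, 399 and 322 in ASA, 375 and 339 in CUR, and 305 and 371 in ASA+CUR. Every group overlapped its neighbour, and the Model libraries held both the highest and the lowest value. The difference over all AOM/DSS groups was 0.12, with a 95% interval of −0.31 to 0.55 (adjusted p = 0.646).

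Ldha (chr7:46842274-46855627, plus strand) was the most abundant member per length. It stood at 989 and 901 FPKM in Control, 1013 and 627 in Model, 735 and 730 in ASA, 1127 and 732 in CUR, and 553 and 672 in ASA+CUR. ASA and ASA+CUR were below both Control libraries, while Model and CUR had 1 library above and 1 below them. The difference over all AOM/DSS groups was −0.32 (interval −0.86 to 0.21, adjusted p = 0.316). NM_010699, which starts beside the Ldha stretch printed above, held at least 99.7% of the gene in every library. Ldhb, the subunit that favours pyruvate, fell over all AOM/DSS groups from 39.5 and 27.8 FPKM to between 9.25 and 24.6 (−0.93 ± 0.22, adjusted p = 0.0156), with −0.52 ± 0.28 in Model (adjusted p = 0.250). Over all AOM/DSS groups the Ldhb value missed the threshold without Control replicate 0 (−0.68). It also missed with equal FPKM sums (−0.68, limma adjusted p = 0.0613). The ratio of Ldha to Ldhb within a library was 25.1 and 32.5 in Control and 29.5 to 79.4 in the AOM/DSS libraries, and these ranges overlapped. Ldha, Pgk1 and Gapdh have many pseudogene copies in the genome, and the authors' treatment of fragments that map to several places is not known here, so their levels are uncertain to that extent.

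Over all tested rows, 16.2% were called in Model and 31.5% over all AOM/DSS groups. Among the other 26 tested genes of glycolysis and glucose or lactate transport, 2 rose and 5 fell in Model. Over all AOM/DSS groups 3 rose and 8 fell, with a median difference of −0.21 beside 0.02 for all rows. Without Control replicate 0 the latter counts were 2 and 5, without Control replicate 1 they were 2 and 4, and in Model each left 1 and 1. Slc16a3, the lactate exporter of glycolytic cells and a HIF target, had the largest rise, from 5.57 and 4.49 FPKM in Control to between 24.4 and 56.8 in the AOM/DSS libraries (2.70 ± 0.29, adjusted p = 0.000540). Slc16a1, the transporter that also carries butyrate into colonocytes, fell from 90.6 and 99.7 FPKM to between 22.9 and 47.5 (−1.43 ± 0.25, adjusted p = 0.00446). It too is outside the rule for named genes. Pfkm, the muscle form of phosphofructokinase, fell from 10.8 and 12.1 FPKM to between 1.90 and 4.35 (−1.50 ± 0.20, adjusted p = 0.00125). Eno2, the neuronal enolase, fell from 5.43 and 6.10 FPKM to between 0.933 and 2.21 (−1.51 ± 0.22, adjusted p = 0.00189). The smooth muscle and neuronal marker sums fell with Pfkm and Eno2, and their part was not tested. Glucose transporter Slc2a1 (0.27 ± 0.31, adjusted p = 0.539), Pfkl (−0.15 ± 0.14, adjusted p = 0.446), Gapdh (0.28 ± 0.21, adjusted p = 0.329) and Pkm (0.42 ± 0.19, adjusted p = 0.130) did not pass. With the scaling to equal sums, Gapdh (0.56, adjusted p = 0.0255) and Pkm (0.69, adjusted p = 0.0181) did, and Pfkl turned to 0.12. Pkm also passed without Model replicate 1 (0.50, adjusted p = 0.0462). Of 6 gluconeogenesis genes, 3 fell in both comparisons (Pck1, Pck2 and Pcx), beside 9.34% and 16.9% of all tested rows called lower. Pck1 gave −3.65 ± 0.45 over all AOM/DSS groups (adjusted p = 0.000973). With equal FPKM sums Pck2 (−0.34, limma adjusted p = 0.295) and Pcx (−1.47, adjusted p = 0.0832) were not called in Model. Without either Control library, 0 of the 6 passed in Model and 2, Pck1 and Pck2, over all AOM/DSS groups.

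**Figure D3:**
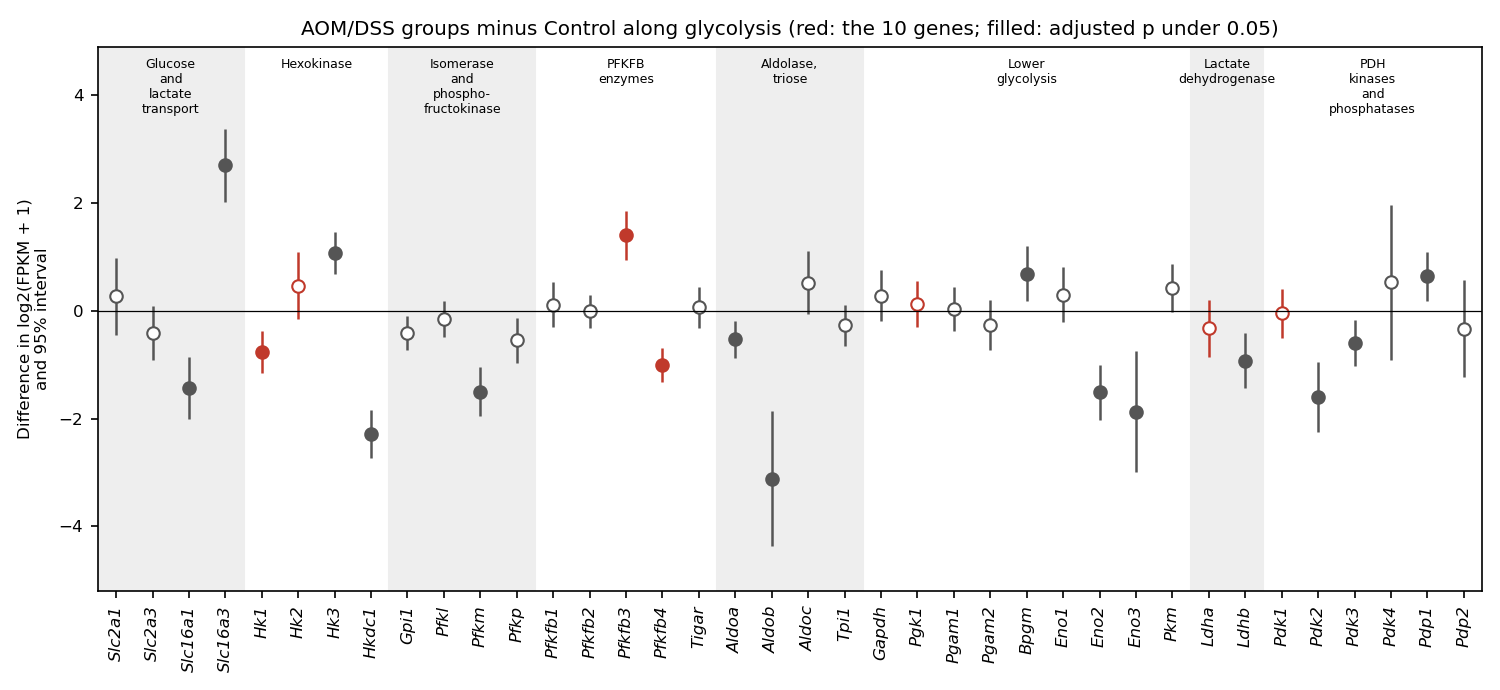
Difference in log2(FPKM + 1) between the mean of the 4 AOM/DSS groups and Control, with 95% intervals, for genes ordered along glycolysis. Red marks members of the 10, and filled points have an adjusted p under 0.05. Slc16a3 (2.70) and Pfkfb3 (1.40) are the highest called points, and most called points at other steps lie below 0.

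Pdk1 (chr2:71873215-71903858, plus strand) was at 11.4 and 14.6 FPKM in Control, 13.8 and 11.8 in Model, 16.6 and 11.0 in ASA, 9.41 and 14.1 in CUR, and 12.3 and 11.7 in ASA+CUR. All groups overlapped, and the difference over all AOM/DSS groups was −0.05 with an interval of −0.51 to 0.41 (adjusted p = 0.874). Its sign turned under several alternatives. Around it, the other 12 tested genes of pyruvate entry to the mitochondria gave 0 higher and 4 lower calls in Model, beside 6.84% and 9.34% of all tested rows. Over all AOM/DSS groups they gave 1 higher and 7 lower, beside 14.6% and 16.9% of all tested rows, with a median of −0.51. Leaving out either Control library gave 0 higher and 2 lower for the latter, and 0 calls in Model. Pdk2, a related kinase, fell from 35.4 and 41.2 FPKM to between 6.84 and 20.7 (−1.60 ± 0.28, adjusted p = 0.00446). Mpc1 (−0.90 ± 0.19, adjusted p = 0.00970) and Mpc2 (−0.93 ± 0.18, adjusted p = 0.00727), which form the mitochondrial pyruvate carrier, and Dld (−0.77 ± 0.13, adjusted p = 0.00381) and Pdha1 (−0.63 ± 0.12, adjusted p = 0.00589), subunits of pyruvate dehydrogenase, also fell. Pdk4, a kinase induced by fasting and fat, varied from 0.542 to 9.62 FPKM between the 2 ASA libraries and did not pass (0.53 ± 0.62, adjusted p = 0.546). Pdk2, Mpc1, Mpc2, Dld and Pdha1 each missed the threshold in at least 1 of the fits that left out a library. With equal FPKM sums the Model calls of Pdk2, Mpc1, Dld and Pdha1 were lost (limma adjusted p = 0.103, 0.110, 0.110 and 0.304). Over all AOM/DSS groups that scaling lost the calls of Mpc1 (−0.63, adjusted p = 0.0520) and Pdha1 (−0.36, adjusted p = 0.110).

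Vegfa (chr17:46016993-46032377, minus strand) was at 17.9 and 14.4 FPKM in Control, 13.8 and 16.5 in Model, 22.8 and 17.6 in ASA, 24.6 and 13.6 in CUR, and 16.7 and 28.9 in ASA+CUR. Its groups all overlapped from neighbour to neighbour, and within CUR and ASA+CUR the 2 libraries differed more than any 2 group means. The difference over all AOM/DSS groups was 0.21 (interval −0.39 to 0.81, adjusted p = 0.572). Of its 6 transcripts, NM_009505 held 22.7% to 48.9% of the gene. Among 10 tested genes of the VEGF family, its receptors and the angiopoietins, 1 rose in Model, and 2 rose and 2 fell over all AOM/DSS groups. Over all tested rows 16.2% and 31.5% were called in these comparisons. Placental growth factor Pgf rose from 0.642 and 0.338 FPKM to between 3.04 and 11.6 (2.10 ± 0.40, adjusted p = 0.00609) and Angpt2, which loosens vessel walls, gave 1.90 ± 0.60 (adjusted p = 0.0442). The Angpt2 call was lost with no filter on low values (adjusted p = 0.0677) and without either ASA library (0.0616 and 0.0702), either ASA+CUR library (0.0717 and 0.0727) or either Control library (0.191 and 0.219). Vegfb (−0.98 ± 0.20, adjusted p = 0.00812) and the co-receptor Nrp2 (−1.32 ± 0.25, adjusted p = 0.00580) fell. The receptor Kdr gave 0.03 ± 0.21 (adjusted p = 0.929). The 10 endothelial markers summed to 65.2 and 68.8 FPKM in Control and 64.6 to 200 in the AOM/DSS libraries, with 1 called higher, and their part was not tested. Without Control replicate 1 the list had 0 higher and 1 lower call, and without Control replicate 0 it had 1 of each, over all AOM/DSS groups. Without any 1 of the ASA or ASA+CUR libraries 1 was higher. In Model the list had 0 higher without either Control library or Model replicate 1, and 3 without Model replicate 0.

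Car9 (chr4:43507026-43513729, plus strand) was at 49.6 and 44.8 FPKM in Control, 56.6 and 48.2 in Model, 29.7 and 58.0 in ASA, 63.8 and 26.2 in CUR, and 18.9 and 24.6 in ASA+CUR. The ASA and CUR pairs each spanned the Control range, and both ASA+CUR libraries were below every other library. Over all AOM/DSS groups the difference from Control was −0.33 (interval −1.10 to 0.44, adjusted p = 0.480), and in Model it was 0.15 ± 0.42 (adjusted p = 0.855). Of the 8 other carbonic anhydrases tested, 0 rose and 5 fell in both comparisons (Car2, Car3, Car4, Car8 and Car14), with medians of −1.07 and −1.19. Over all tested rows, 9.34% were called lower in Model and 16.9% over all AOM/DSS groups. With equal FPKM sums Car14 was not called in either comparison (limma adjusted p = 0.112 and 0.124). Car4, a marker of surface colonocytes, fell from 657 and 707 FPKM to between 13.6 and 163 (−4.12 ± 0.54, adjusted p = 0.00122), and Car2 from 451 and 589 to between 60.9 and 227 (−1.79 ± 0.29, adjusted p = 0.00331). The absorptive colonocyte marker sum, which includes Car4, was lower with Car4 and Car2 in all AOM/DSS libraries but CUR replicate 0, and its part was not tested. Car3 gave −3.95 to −3.57 over all AOM/DSS groups when 1 library was left out. The Car2 call in Model was lost without any 1 Control or Model library (−1.53 to −1.14). It was also lost there with no filter, equal FPKM sums or a replicate block. Over all AOM/DSS groups it was lost without Control replicate 1 (−1.60). Without Control replicate 1 the lower calls were 3 over all AOM/DSS groups and 2 in Model, and without Control replicate 0 they were 4 and 2.

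**Figure D4:**
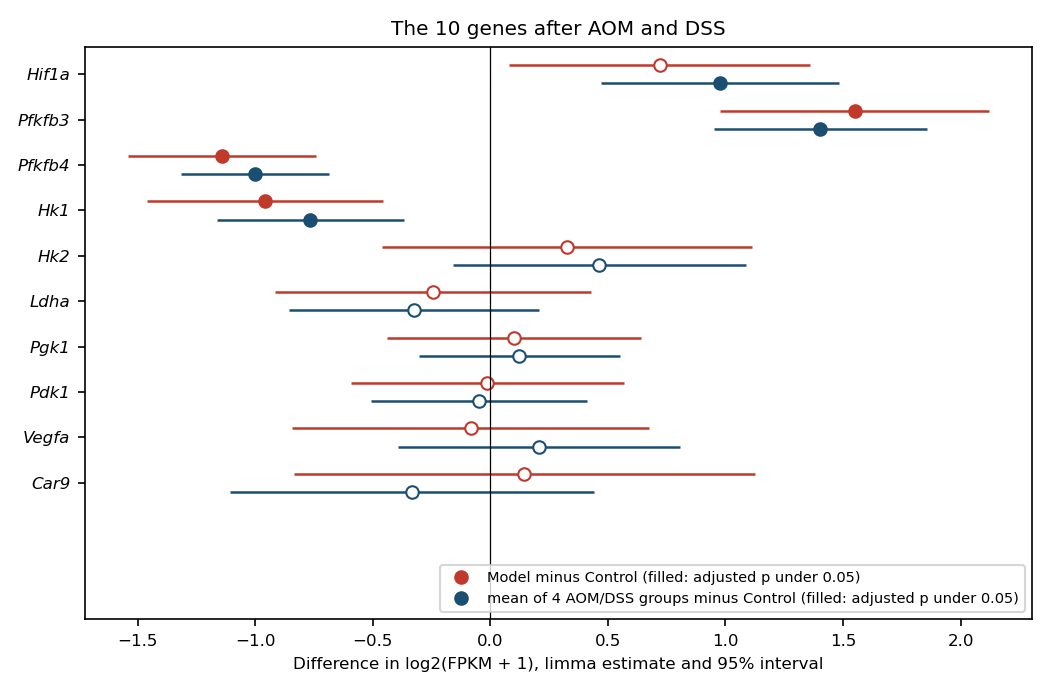
Differences in log2(FPKM + 1) from Control with 95% intervals for the 10 genes, red for Model and blue for the mean of the 4 AOM/DSS groups. Filled points have an adjusted p under 0.05: Pfkfb3 and Hif1a to the right of 0, Pfkfb4 and Hk1 to the left.

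Of 21 other HIF targets, all tested, 2 rose and 0 fell in Model, and 5 rose and 1 fell over all AOM/DSS groups, with medians of 0.37 and 0.09 beside 0.02 for all rows. Over all rows 16.2% were called in Model (6.84% higher, 9.34% lower) and 31.5% over all AOM/DSS groups (14.6% higher, 16.9% lower). The list held no more calls than the background in both directions together, while most of its calls were higher. Those that rose included the stress gene Ddit4 (1.36 ± 0.18, adjusted p = 0.00117), the collagen crosslinker Lox (1.86 ± 0.28, adjusted p = 0.00218), the transcription repressor Bhlhe40 (0.92 ± 0.14, adjusted p = 0.00238) and the lipase inhibitor Angptl4 (2.24 ± 0.59, adjusted p = 0.0225). Ddit4 went from 40.0 and 57.8 FPKM in Control to between 107 and 151. The 1 lower gene was Stc2, which like Angptl4 is outside the rule for named genes. Without Control replicate 0 the counts over all AOM/DSS groups were 4 and 0, and without Control replicate 1 they were 3 and 1. The fibroblast markers, whose cells make Lox, summed to 580 and 504 FPKM in Control and 640 to 1375 in the AOM/DSS libraries (6 of 10 rose, 1 fell), and their part was not tested.

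Across the 8 AOM/DSS libraries, the tested genes whose log2(FPKM + 1) most resembled each called member were Ctbp2 (r = 0.97), Rnmt (0.96) and Aldh1a3 (0.96) for Hif1a. They were Rhoq (r = 0.99), P4ha2 (0.97) and Slc41a1 (0.96) for Pfkfb3. For Pfkfb4 they were Atp10b (r = 0.93), Polr3c (0.92) and Klra2 (0.91), and for Hk1 they were Llgl2 (0.96), Ptgs2 (0.95) and P2ry2 (0.95). With 8 libraries and 14061 rows these are the highest of many correlations, and the libraries share group and cell makeup.

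Under the diets, none of the 10 genes passed the test against Model or between the combination and the single agents. The same held for nearly all genes: 0.0142% of tested rows were called for ASA against Model, 0.00711% for CUR, 0.0142% for ASA+CUR, and 0% for ASA+CUR against ASA and against CUR, by limma at an adjusted p under 0.05. At an unadjusted p under 0.05 the shares over all rows were 2.38%, 4.86%, 10.1%, 2.84% and 13.8%, and of the 10 genes 0, 0, 1, 1 and 1. The genes described next have the smallest p-values of the 10 and were chosen after their values were seen. The 2 comparisons between diets differ in dose as well as in agents. Smooth muscle markers summed to 301 to 501 FPKM under the diets beside 726 and 913 in Model, with 0 called. Their part in the diet differences was not tested.

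Car9 had the largest difference from Model, in ASA+CUR, where both libraries (18.9 and 24.6 FPKM) were below both Model libraries (56.6 and 48.2). The difference was −1.24 with an interval of −2.22 to −0.26, an unadjusted p of 0.0194 and an adjusted p of 0.458 (limma). It was −0.92 against ASA and −0.90 against CUR, with adjusted p of 1 and 0.373. Without CUR replicate 0 the latter was −0.27 with an adjusted p of 0.897. Without CUR replicate 1 it was −1.52 with an adjusted p of 0.0427, in a fit that called 1956 rows against 0 with all libraries, and which leaves CUR replicate 0, the library with high colonocyte markers, as the sole CUR sample.

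Hif1a was at 77.0 and 89.2 FPKM in ASA+CUR, 75.6 and 82.8 in ASA and 47.0 and 51.2 in CUR, beside the widely spaced 75.7 and 38.4 in Model. It differed from Model by 0.61 in ASA+CUR (interval −0.03 to 1.25, adjusted p = 0.507), 0.54 in ASA (−0.09 to 1.18, adjusted p = 1.00) and −0.13 in CUR (−0.77 to 0.51, adjusted p = 0.955). ASA+CUR was above CUR by 0.74 ± 0.28, with an unadjusted p of 0.0277 and an adjusted p of 0.333 (limma), and the libraries of the 2 groups did not overlap. All 3 intervals against Model include 0, and those of ASA and ASA+CUR reach past 1 on the log2 scale.

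Hk2 was higher by value in ASA (77.4 and 64.8 FPKM) than in Model (54.0 and 30.7), at 0.78 ± 0.34 with an unadjusted p of 0.0513, and both ASA+CUR libraries (33.4 and 33.3) were below both ASA libraries, at −1.06 ± 0.34 with an unadjusted p of 0.0144 and an adjusted p of 1. Pfkfb3 had its lowest AOM/DSS values in CUR (7.93 and 8.53 FPKM), at −0.54 against Model, with an interval of −1.12 to 0.03 and an adjusted p of 0.934. Ldha was lowest in ASA+CUR (553 and 672 FPKM), at −0.57 against CUR with an adjusted p of 0.396. Pfkfb4 differed from Model by 0.32 (ASA), 0.25 (CUR) and −0.01 (ASA+CUR), and Hk1 by 0.25, 0.25 and 0.28, with all intervals including 0. Pgk1 differed from Model by 0.06, 0.05 and −0.03 in the 3 diets, and Pdk1 by 0.08, −0.13 and −0.08, with an interval of −0.72 to 0.45 for Pdk1 in CUR.

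**Figure D5:**
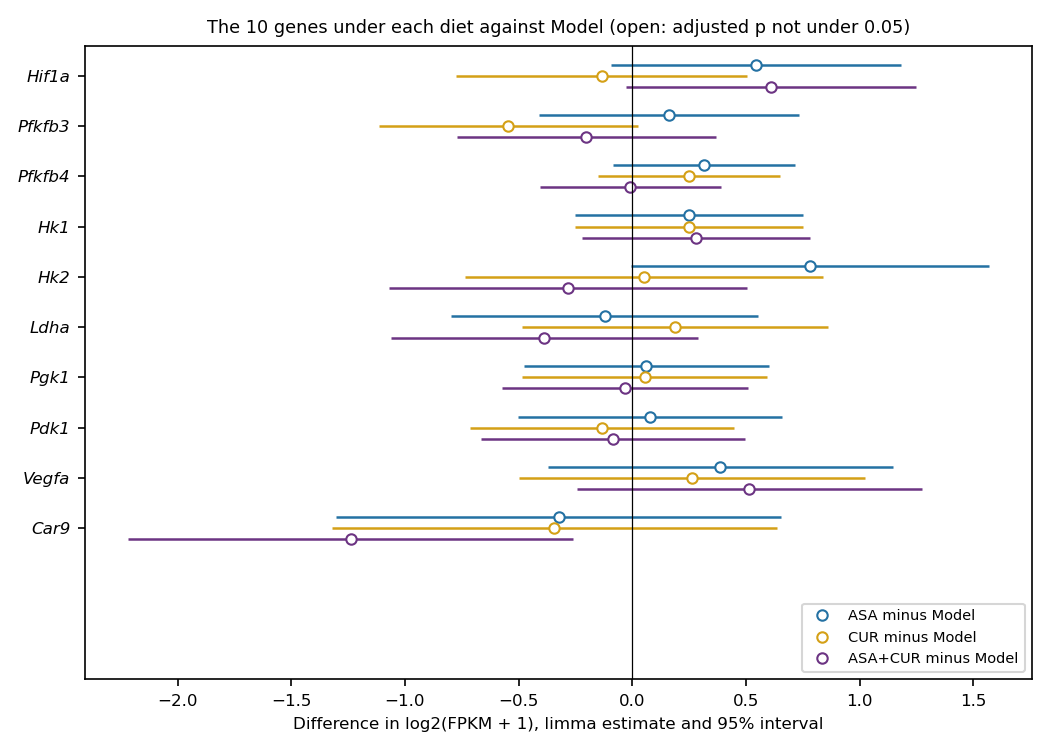
Differences in log2(FPKM + 1) from Model with 95% intervals for the 10 genes under the ASA (blue), CUR (yellow) and ASA+CUR (purple) diets. All points are open because no adjusted p is under 0.05, and only the interval for Car9 in ASA+CUR does not include 0.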

How the data were processed

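RNA-seq of colon from 10 libraries was analysed from the authors' table of FPKM per RefSeq transcript (30073 rows). Per the submitters' processing notes, the tools were Cuffdiff, Bowtie2 2.1.0.0, TopHat2 2.0.9 and bcl2fastq 2.17.1.14, and the builds mm10 and GRCm38, with no roles given; the strand setting, the treatment of fragments mapping to several places and the Cuffdiff version are not given in the sources used here. Because FPKM are not counts and whole reads could not be recovered from the low values, depth is unknown and limits how firmly low genes can be read. The deposited FPKM were summed per gene (23473 rows) with RefSeq names of GRCm38.p6. Rows reaching 1 FPKM in 2 or more libraries (14061) entered 1 fit of all 10 libraries by limma 3.58.1 (trend, R 4.3.3) on log2(FPKM + 1), with 5 residual degrees of freedom, two-sided tests, Benjamini-Hochberg adjustment over all tested rows, a threshold of 0.05 and 95% intervals. Fold changes are on the FPKM + 1 scale, which understates changes of low genes. The procedure was tested on simulated data.

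The members and gene lists were chosen with earlier results of these data known. Besides the 10 genes, the text names up to 4 genes per list past the threshold by smallest p, 11 fixed partner genes and the 3 genes most like each called member; others are said to be outside this rule, and 1 gene that it names is not reported here. Alternatives were another pseudocount, no filter, other scalings (equal FPKM sums, median of ratios), a block on the replicate number, leaving out transcripts listed in several copies, fitting only the groups compared, and leaving out each library.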

Additional observations from a re-analysis of the deposited data

How the results depend on the processing

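Over all rows, leaving out 1 library gave 553 to 1636 calls for Model against Control (2276 with all), 1567 to 5417 for the AOM/DSS groups against Control (4435), 0 to 1 for ASA against Model, 1 to 3 for CUR against Model, 0 to 1 for ASA+CUR against Model, 0 to 1 for ASA+CUR against ASA, and 0 to 1956 for ASA+CUR against CUR. Such a fit assumes that the lone library of a group varies like the others. The few calls between diets moved with the setting, and the cause was not tested: ASA against Model gave 1 without transcripts listed in several copies and 0 with only the groups compared. CUR against Model gave 0 with a pseudocount of 0.1, without a filter, and with only the groups compared. ASA+CUR against Model gave 1 without the copies and 4 with only its groups, ASA+CUR against ASA gave 2 without a filter and 1 with only its groups, and ASA+CUR against CUR gave 1 with a pseudocount of 0.1, with equal FPKM sums and with only its groups. The r of same-numbered deviations between groups ran from −0.21 to 0.33. With 1 difference per group, it cannot settle whether the replicate numbers pair libraries. With the number as a replicate block, Model and the AOM/DSS groups against Control gave 2062 and 4262 calls, CUR and ASA+CUR against Model 0 and 0, and the members called stayed at 3 and 4. None of the members called with all libraries changed sign. With libraries scaled to equal FPKM sums, genes that were not called turned sign: Ldha (0.017), Pdk1 (0.23), Vegfa (0.17) and Slc2a1 (0.22) in Model, and Pdk1 (0.21) and Pfkl (0.12) over all AOM/DSS groups. Leaving out 1 library turned the sign of further uncalled values in Model against Control, with ranges of −0.071 to 0.72 for Hk2, −0.59 to 0.10 for Ldha, −0.20 to 0.40 for Pgk1, −0.18 to 0.16 for Pdk1, −0.23 to 0.066 for Vegfa, −0.38 to 0.30 for Slc2a1, −0.024 to 0.63 for Pkm, −0.67 to 0.046 for Epas1 and −0.033 to 0.62 for Kdr. Over all AOM/DSS groups they were −0.22 to 0.12 for Pdk1 and −0.17 to 0.23 for Kdr. For single genes, 1259 of 1407 alternative values kept their direction and side of the threshold. This total pools called and uncalled genes and includes settings that hardly change the fit, so it does not measure how firm the calls are. For the diets, alternatives were run on the 3 members with the smallest p in each comparison, chosen after their values were seen.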
